A study of Homo sapiens with 9 samples.

Results

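The proteins described here are encoded by 5 genes, each found as 1 row among the 60708 gene rows of the count table by matching its Ensembl identifier to its symbol. SF3A1, SF3A2 and SF3A3 form the SF3A complex, and SNRPA1 and SNRPB2 encode the A′ and B″ polypeptides, the proteins specific to the U2 small nuclear ribonucleoprotein (snRNP). All 5 passed the filter on low counts. The genes did not move as a unit after 16 h of the splicing inhibitor pladienolide B (PdB): SNRPB2 and SF3A2 rose, SNRPA1 and SF3A3 fell, and SF3A1 did not pass the test. At recovery, 24 h later, all 5 stood above the vehicle level, from 1.12-fold for SF3A3 to 2.15-fold for SNRPB2. None of them passed a test against a 2-fold change there. Of all genes tested, 32% rose and 38.2% fell under PdB, and 30.7% were higher and 30.5% lower at recovery.

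The U2 snRNP recognises the branch point of an intron early in spliceosome assembly. SF3A1 is the scaffold of the SF3A trimer and carries SURP domains. SF3A2 and SF3A3 are zinc-finger proteins, and the trimer joins the SF3B complex to the core of the particle. The A′ polypeptide is a leucine-rich repeat protein that binds the B″ polypeptide, and B″ binds a stem-loop of U2 snRNA through an RNA recognition motif. PdB is a macrolide that binds SF3B1 and PHF5A of the SF3B complex and hinders the pairing of U2 with the branch point.

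RNA was measured in MDA-MB-231 cells, a mesenchymal-like human line from a triple-negative breast cancer, in 3 groups of 3 libraries: 10 nM PdB for 16 h, the same treatment followed by 24 h without the drug (recovery), and the vehicle DMSO. One DMSO group served both comparisons, and the labels give neither its time of collection nor whether replicates were separate cultures, so p-values measure only the spread between these libraries, which may be technical. Libraries held 56389689 to 67047079 counts. Mitochondrial genes took 7.60% ± 0.87 of counts in PdB, 8.12% ± 0.087 at recovery and 5.21% ± 0.48 in DMSO (SD, n = 3 each), and the part of this difference in the results was not tested. Levels are counts relative to library size (CPM), scaled by trimmed mean of M-values (TMM) factors. The line's markers VIM, CD44, AXL, FN1 and CAV1 were all above 161 CPM in every library, ESR1 had no count in any of the 9 libraries and PGR reached at most 0.063 CPM, and CD3E and ALB were at 0 in at least 5 libraries each. ERBB2 lay between 49.1 and 109.6 CPM, EPCAM between 2.17 and 6.51 CPM, and CDH1, PTPRC and PECAM1 reached at most 1.39 CPM. Without a spike-in, a CPM is a share of each library's RNA, and in such bulk samples fewer cells and less RNA per cell cannot be told apart. The median log2 change of all genes under PdB was -0.11 with TMM, -0.31 with library totals and 0.039 with upper-quartile factors. Changes were not centred on this median and are relative to the scaling used.

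The 5 genes lie on 5 chromosomes and differ in structure (GENCODE 29, GRCh38). SF3A1 (ENSG00000099995.19) spans chromosome 22, 30331988 to 30356947, on the minus strand, and SF3A2 (ENSG00000104897.10) chromosome 19, 2236504 to 2248679, on the plus strand. SF3A3 (ENSG00000183431.12) spans chromosome 1, 37956975 to 37990921, minus strand. SNRPA1 (ENSG00000131876.17) spans chromosome 15, 101281510 to 101295282, minus strand, and SNRPB2 (ENSG00000125870.11) chromosome 20, 16729961 to 16742563, plus strand. Their coding transcripts hold 15 introns in SF3A1, 8 in SF3A2, 16 in SF3A3, 8 in SNRPA1 and 6 in SNRPB2. Annotated transcripts that retain an intron number 6 of 10 for SF3A1, 5 of 7 for SF3A2 and 6 of 16 for SNRPA1, and 0 for SF3A3 and SNRPB2. Gene-level counts do not tell these transcripts apart and do not measure splicing.

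All 5 promoters hold the letters CCGGAAG or their reverse complement CTTCCGG, the core bound by ETS transcription factors. The motif was chosen after the promoters were read. The window searched ran from 250 bases before to 50 after the annotated start (RefSeq, GRCh38.p14). In it, 3603 of 35116 promoters of the reference (10.3%) and 12.9% of those of protein-coding genes hold the motif on either strand. The share among the genes tested here was not computed. The 120 bases before each RefSeq start are shown because all 5 hold the motif there. These starts differ from the GENCODE 29 gene ends given above. Each stretch overlaps the GENCODE span of its gene, and those of SF3A2 and SF3A3 lie wholly inside it. Capitals mark the motif, and each stretch is written 5′ to 3′ on the strand of the gene.
SF3A1, chr22:30356895-30357014, minus strand: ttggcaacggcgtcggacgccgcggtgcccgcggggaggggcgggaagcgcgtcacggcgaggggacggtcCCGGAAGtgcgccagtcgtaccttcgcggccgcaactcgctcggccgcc
SF3A2, chr19:2236704-2236823, plus strand: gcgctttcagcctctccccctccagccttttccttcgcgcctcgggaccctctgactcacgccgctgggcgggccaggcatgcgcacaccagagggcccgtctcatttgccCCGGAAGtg
SF3A3, chr1:37990023-37990142, minus strand: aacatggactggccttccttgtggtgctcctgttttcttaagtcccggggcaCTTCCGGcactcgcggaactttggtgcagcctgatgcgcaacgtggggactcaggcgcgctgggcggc
SNRPA1, chr15:101295249-101295368, minus strand: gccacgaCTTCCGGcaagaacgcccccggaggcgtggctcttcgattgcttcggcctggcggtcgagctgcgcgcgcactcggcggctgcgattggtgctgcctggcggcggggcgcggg
SNRPB2, chr20:16729906-16730025, plus strand: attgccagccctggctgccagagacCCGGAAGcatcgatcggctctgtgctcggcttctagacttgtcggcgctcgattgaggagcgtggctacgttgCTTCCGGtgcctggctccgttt

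Counted back from the RefSeq start, the motif begins at base -49 in SF3A1, -9 in SF3A2, -68 in SF3A3 and -113 in SNRPA1. SNRPB2 holds it in both orientations, at -95 and -22, and SF3A3 has another copy at base 9 after the start. Genes that rose and genes that fell under PdB both hold it. These data do not measure binding of any factor there.

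PdB was set against DMSO to see what differed when treatment ended. Of the 5 genes, 2 rose and 2 fell at an adjusted p under 0.05 (edgeR's quasi-likelihood test with Benjamini-Hochberg adjustment over 20812 genes), and 4 of 5 is to be read against 70.1% of all genes tested, 32% up and 38.2% down. Their median log2 change was 0.015, against -0.11 over all genes.

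The genes of the 3 SF3A subunits went 3 ways under PdB. SF3A2, a zinc-finger subunit, had 292, 302 and 238 CPM in PdB libraries, against 127, 138 and 140.1 CPM in DMSO libraries. Every PdB library lay above every DMSO library, although PdB replicate 3 was lower than the other two. The log2 change was 1.04 ± 0.071 (SE, 2.06-fold, edgeR adjusted p = 1.9e-10), higher than that of 80.6% of all genes. SF3A3, the other zinc-finger subunit, had 62.4, 64.8 and 62.3 CPM in PdB libraries, against 116, 123 and 121 CPM in DMSO libraries. The groups were far apart, with PdB libraries at about the same level as each other, and the log2 change was -0.93 ± 0.049 (0.527-fold, edgeR adjusted p = 5.8e-12). SF3A1, the scaffold, had 175, 165 and 165 CPM in PdB libraries, against 159.7, 168 and 171 CPM in DMSO libraries. These groups overlapped, and the log2 change was 0.015 ± 0.048 (edgeR adjusted p = 0.79). With library totals the SF3A1 value was -0.18 (adjusted p = 0.0015) and with upper-quartile factors 0.17 (adjusted p = 0.0036), so its direction rests on the scaling. SF3A2, SF3A3, SNRPA1 and SNRPB2 kept their directions under PdB with all 4 scalings.

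The genes of the 2 U2-specific proteins, which bind each other, went in opposite directions. SNRPB2, which encodes the B″ polypeptide, had 136, 136 and 127 CPM in PdB libraries, against 48.3, 51.4 and 49.8 CPM in DMSO libraries. No library of one group came near the other, and the log2 change of 1.42 ± 0.054 (2.67-fold, edgeR adjusted p = 5.0e-14) was the largest of the 5 genes. SNRPA1, which encodes the A′ polypeptide, had 26.9, 30.1 and 29.9 CPM in PdB libraries, against 54.0, 55.6 and 58.1 CPM in DMSO libraries. Again the groups did not overlap, as in 72.5% of all genes tested, and the log2 change was -0.95 ± 0.063 (0.518-fold, edgeR adjusted p = 1.6e-10).

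**Figure D1:**
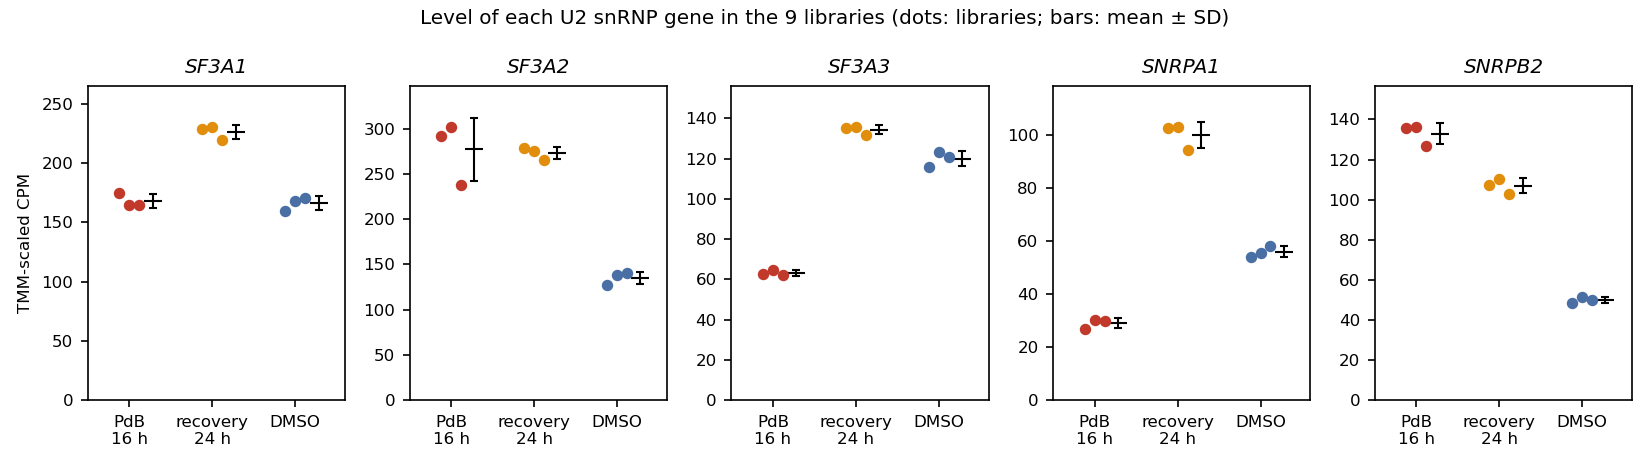
TMM-scaled CPM (vertical axes, each from 0) of the 5 genes in each library of the PdB, recovery and DMSO groups, with dots for libraries and bars for mean ± SD (n = 3). SF3A2 and SNRPB2 are high in PdB and recovery libraries, SF3A3 and SNRPA1 are low in PdB libraries, and recovery libraries lie above DMSO libraries in all 5 panels.

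Recovery was then set against DMSO, 24 h after the end of treatment. All 5 genes rose, where 61.2% of all genes tested passed, 30.7% higher and 30.5% lower. Their median log2 change was 0.84, against 0.026 over all genes, and the count of 5 was the same with all 4 scalings. The comparisons share the DMSO libraries.

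SNRPB2 had 108, 110.3 and 103 CPM at recovery, against the 48.3 to 51.4 CPM of DMSO libraries, and a log2 change of 1.10 ± 0.053 (edgeR adjusted p = 4.2e-12). SF3A2 had 278, 276 and 266 CPM at recovery, against 127 to 140.1 CPM in DMSO, with a log2 change of 1.02 ± 0.071 (edgeR adjusted p = 4.8e-10). These are 2.15-fold for SNRPB2 and 2.02-fold for SF3A2, and neither passed edgeR's test against a 2-fold change (adjusted p = 0.065 for SNRPB2 and 0.67 for SF3A2). SNRPA1 had 103, 103 and 94.4 CPM at recovery, against 54.0 to 58.1 CPM in DMSO, with a log2 change of 0.84 ± 0.062 (1.79-fold, edgeR adjusted p = 1.0e-09). SNRPA1 thus lay below every DMSO library under PdB and above every one at recovery. SF3A1 had 229, 231 and 220.0 CPM at recovery, against 159.7 to 171 CPM in DMSO, and a log2 change of 0.45 ± 0.048 (edgeR adjusted p = 1.7e-07). SF3A3 had 135, 136 and 132 CPM at recovery, against 116 to 123 CPM in DMSO. Its log2 change of 0.16 ± 0.048 (1.12-fold, edgeR adjusted p = 0.0069) was the smallest of the 5, although the groups did not overlap, as in 70.4% of all genes tested.

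**Figure D2:**
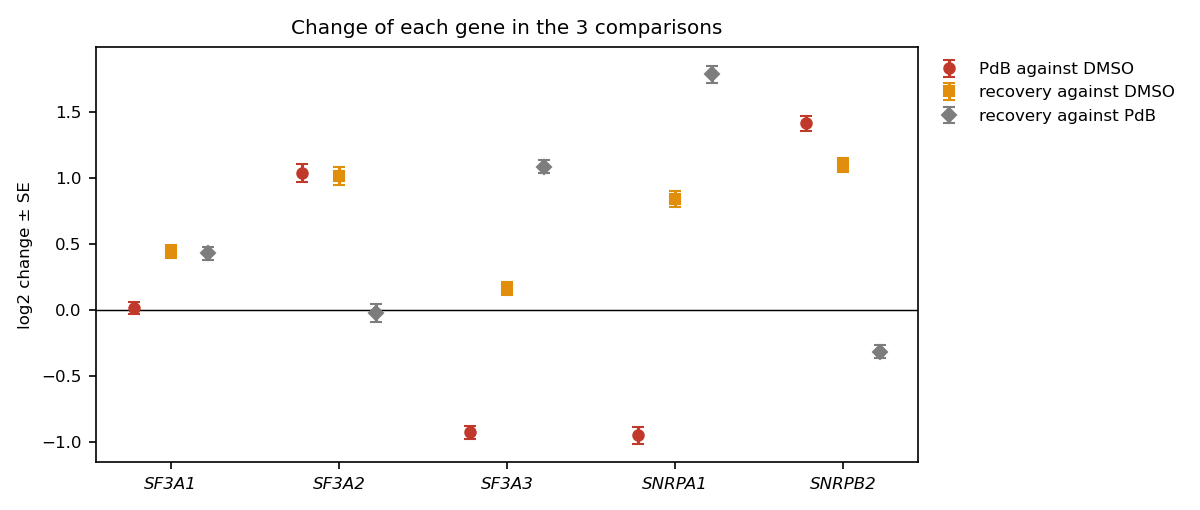
log2 change ± SE (vertical axis) of each gene for PdB against DMSO (circles), recovery against DMSO (squares) and recovery against PdB (diamonds). Circles range from -0.95 for SNRPA1 to 1.42 for SNRPB2, while the 5 squares lie between 0.16 and 1.10.

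Recovery was also set against PdB, using the same recovery and PdB libraries as above. Of the 5 genes, 3 rose and 1 fell (4 rose and 0 fell with library totals), where 66.1% of all genes tested passed, 34.6% up and 31.5% down. SNRPA1 rose by 1.79 ± 0.064 on the log2 scale (3.45-fold, edgeR adjusted p = 3.8e-14), a change higher than that of 89.5% of genes. SF3A3 rose by 1.09 ± 0.049 (edgeR adjusted p = 8.4e-13) and SF3A1 by 0.43 ± 0.048 (edgeR adjusted p = 2.1e-07). These 3 genes had no overlap between recovery and PdB libraries, as was so for 70.5% of all genes tested. SNRPB2 fell by 0.31 ± 0.052 on the log2 scale (edgeR adjusted p = 3.5e-05), and this call ended with library totals (-0.045, adjusted p = 0.42). SF3A2 stayed within its spread, with 273 ± 6.8 CPM at recovery and 277 ± 34.6 CPM in PdB (SD, n = 3 each) and a log2 change of -0.022 ± 0.070 (edgeR adjusted p = 0.80). Without PdB replicate 3, the low library, the SF3A2 change was -0.12 (adjusted p = 0.040), and with library totals it was 0.25 (adjusted p = 0.0021).

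The RNA of partner genes was also compared within each library, as the ratio of 2 genes' counts, which needs no scaling between libraries. These counts measure RNA and not protein. SF3A2 over SF3A3 was 4.68, 4.66 and 3.82 in PdB libraries and 2.06, 2.03 and 2.01 at recovery, against 1.10, 1.12 and 1.16 in DMSO libraries. The 3 groups were ordered without overlap, and recovery libraries stood between the others. The ratio was 3.88-fold higher in PdB than in DMSO and 1.81-fold higher at recovery than in DMSO. SF3A1 over SF3A2 was 0.598, 0.545 and 0.692 in PdB and 0.821, 0.836 and 0.828 at recovery, against 1.26, 1.22 and 1.22 in DMSO, the same order turned round. SF3A1 over SF3A3 averaged 2.66 ± 0.13 in PdB and 1.69 ± 0.016 at recovery, against 1.39 ± 0.028 in DMSO (SD, n = 3 each).

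SNRPA1 over SNRPB2 was 0.198, 0.221 and 0.235 in PdB libraries and 0.955, 0.934 and 0.917 at recovery, against 1.12, 1.08 and 1.17 in DMSO libraries. The PdB ratio was 0.194-fold that of DMSO, and at recovery the ratio was 0.834-fold that of DMSO. Each of the 12 differences in log2 ratio (4 ratios, 3 comparisons) had groups that did not overlap. The 12 are not independent, since ratios share genes and comparisons share libraries. They rest on the same counts as the changes of single genes above. Levels of single genes did not overlap in 72.5% of all genes tested under PdB, 70.4% at recovery against DMSO and 70.5% against PdB. The share for ratios of other gene pairs was not computed. An exact two-sided permutation test gave p = 0.10 for each ratio, also after adjustment over the 12. This is the smallest p that 3 against 3 libraries allow.

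**Figure D3:**
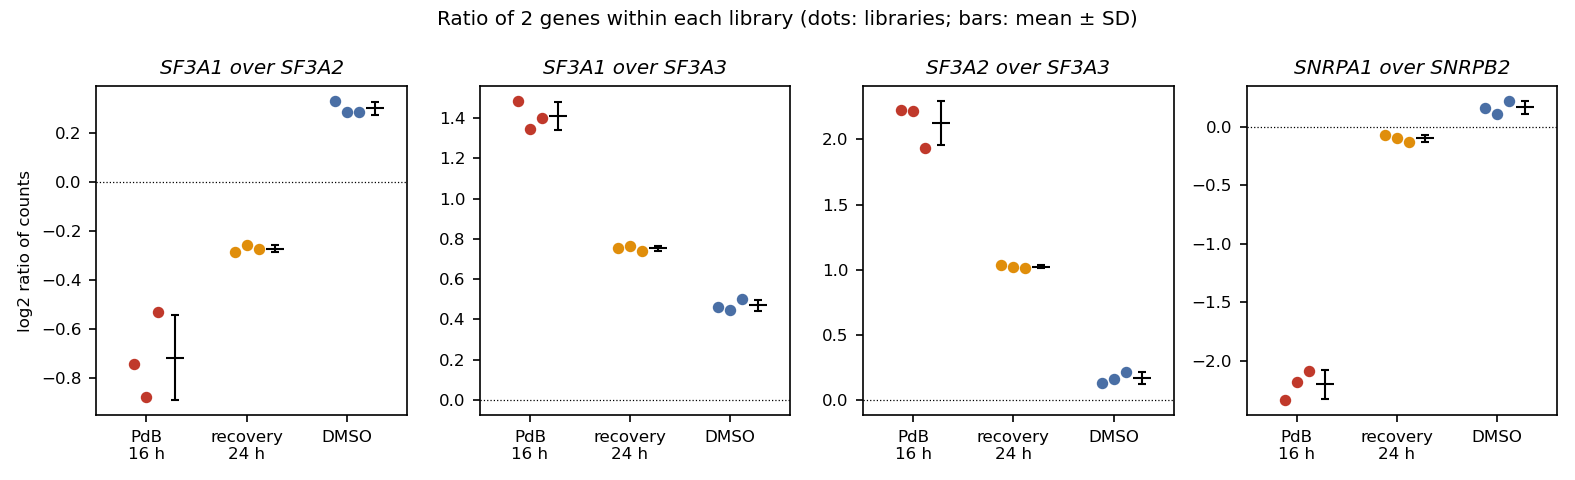
log2 ratio of the counts of 2 genes within a library (vertical axes, each with its own range) in PdB, recovery and DMSO libraries, with dots for libraries and bars for mean ± SD (n = 3). In each panel the 3 recovery libraries lie between the PdB and the DMSO libraries, and the widest gap is that of SNRPA1 over SNRPB2, -2.20 in PdB and 0.17 in DMSO on average.

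Levels of different genes were compared per kilobase of the coding transcript. In PdB libraries the order was SF3A2 at 141 ± 17.6 CPM per kb, SNRPB2 at 54.2 ± 2.1, SF3A1 at 32.7 ± 1.1, SNRPA1 at 27.5 ± 1.7 and SF3A3 at 17.2 ± 0.38 (SD, n = 3 each). At recovery it was SF3A2 at 139 ± 3.5 CPM per kb, SNRPA1 at 94.8 ± 4.6, SF3A1 at 44.0 ± 1.1, SNRPB2 at 43.6 ± 1.5 and SF3A3 at 36.6 ± 0.59. In DMSO it was SF3A2 at 68.8 ± 3.6 CPM per kb, SNRPA1 at 53.0 ± 1.9, SF3A3 at 32.7 ± 1.0, SF3A1 at 32.3 ± 1.1 and SNRPB2 at 20.3 ± 0.65. On this scale SF3A2 was the highest in each group, SF3A3 was lowest in PdB and at recovery, and SNRPB2 was lowest in DMSO. SF3A1 and SF3A3 in DMSO, and SF3A1 and SNRPB2 at recovery, did not differ beyond their spread. The lowest place depends on the length used: over all annotated exons, which for SNRPA1 are 3669 bases in place of 1055, SNRPA1 was the lowest of the 5 in every group, with 7.90 CPM per kb in PdB, 27.3 at recovery and 15.2 in DMSO. SF3A3 then had 13.3 CPM per kb in PdB, 28.3 at recovery and 25.3 in DMSO.

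The 5 genes were set beside genes with as many introns, since their number varied from 6 to 16. SF3A2 and SNRPA1 both have 8 introns and span 12176 and 13773 bases, yet moved in opposite directions under PdB. The 737 tested genes with 8 introns had a median log2 change of -0.22 under PdB, with quartiles at -1.03 and 0.51. SF3A2 (1.04) lay above the upper quartile and SNRPA1 (-0.95) near the lower one. SNRPB2, at 1.42, lay above the upper quartile of 861 genes with 6 introns (quartiles -0.91 and 0.66). SF3A3, at -0.93, lay between the quartiles of 286 genes with 16 introns (-1.35 and 0.065). SF3A1, at 0.015, lay just below the upper quartile of 333 genes with 15 introns (quartiles -1.26 and 0.025). The 2 genes that rose had the lowest and the highest GC content of their coding transcripts, 37.5% in SNRPB2 and 66.6% in SF3A2, where the median of tested coding genes was 49.9%. At recovery SF3A1, SF3A2, SNRPA1 and SNRPB2 lay above the upper quartile of their intron class, and SF3A3 lay between the quartiles of its class. The upper quartiles there were 0.55 with 6 introns, 0.49 with 8, 0.27 with 15 and 0.32 with 16. Some genes of each class lie beyond its quartiles by definition.

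Other genes or copies could share reads with these loci, and the use of strand in counting is not given in the sources used here. PLEKHJ1, on the opposite strand, shares 398 exonic bases with SF3A2, 12.7% of its exons. It had 10.7 ± 0.32 CPM in PdB and 81.8 ± 2.4 CPM at recovery, against 62.1 ± 3.2 CPM in DMSO (SD, n = 3 each), and its log2 change under PdB of -2.54 ± 0.066 (edgeR adjusted p = 4.4e-16) runs against that of SF3A2. CCDC157, on the opposite strand, shares 218 bases with SF3A1 and had 1.98 ± 0.27 CPM in PdB, against 3.09 ± 0.37 CPM in DMSO. The annotated pseudogenes of SF3A2, SF3A3, SNRPA1 and SNRPB2 held at most 17 counts in a library, where the genes themselves held at least 1520. The part of shared reads in the values was not tested.

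The rest of the U2 particle and its neighbours were read from lists drawn up by known function. Their counts stand beside the shares of all genes tested, which were 32% up and 38.2% down under PdB, 30.7% up and 30.5% down at recovery against DMSO, and 34.6% up and 31.5% down at recovery against PdB. Of the 7 SF3B genes, 5 rose and 2 fell under PdB, where 70.1% of all genes passed (median log2 change 1.04, against -0.11 over all genes), with SF3B4, a branch-site contact, at 1.79 ± 0.047 and the scaffold SF3B3 at -0.85 ± 0.046. At recovery against DMSO, where 61.2% of all genes passed, 5 rose and 1 fell (median 0.57), again from SF3B3 at -0.42 ± 0.046 to SF3B4 at 1.43 ± 0.046. PHF5A, which had the largest fall between PdB and recovery (-1.18 ± 0.086), did not differ from DMSO at recovery beyond its error (0.016 ± 0.087, edgeR adjusted p = 0.89), while SF3B2 had the largest rise over PdB (0.72 ± 0.043).

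All 7 genes of the Sm ring, the protein core shared by U1, U2, U4 and U5, rose under PdB, where 32% of all genes did (median log2 change 0.88, against -0.11), from SNRPF at 0.17 ± 0.057 to SNRPB at 1.02 ± 0.053. With library totals 5 of them rose. At recovery against DMSO 4 rose and 0 fell, where 30.7% of all genes rose (median 0.23, against 0.026), again led by SNRPB at 0.50 ± 0.053, and against PdB 6 fell, where 31.5% of all genes did (4 fell and 1 rose with library totals), most of all SNRPD1 at -0.96 ± 0.065. The 3 genes of U1-specific proteins rose under PdB, where 32% of all genes did, led by SNRPC at 0.85 ± 0.050. SNRPA, the U1 relative of SNRPB2 with the same kind of RNA-binding domain, had 155 ± 3.6 CPM in PdB and 59.6 ± 1.1 CPM at recovery, against 91.4 ± 0.23 CPM in DMSO (SD, n = 3 each). At recovery against DMSO its log2 change was -0.62 ± 0.048 (edgeR adjusted p = 2.4e-09), where that of SNRPB2 was 1.10. SNRNP70, which binds another loop of U1 RNA, also fell at recovery (-0.33 ± 0.045) and SNRPC rose (0.47 ± 0.050), so 1 of the 3 U1 genes rose and 2 fell, where 61.2% of all genes passed.

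**Figure D4:**
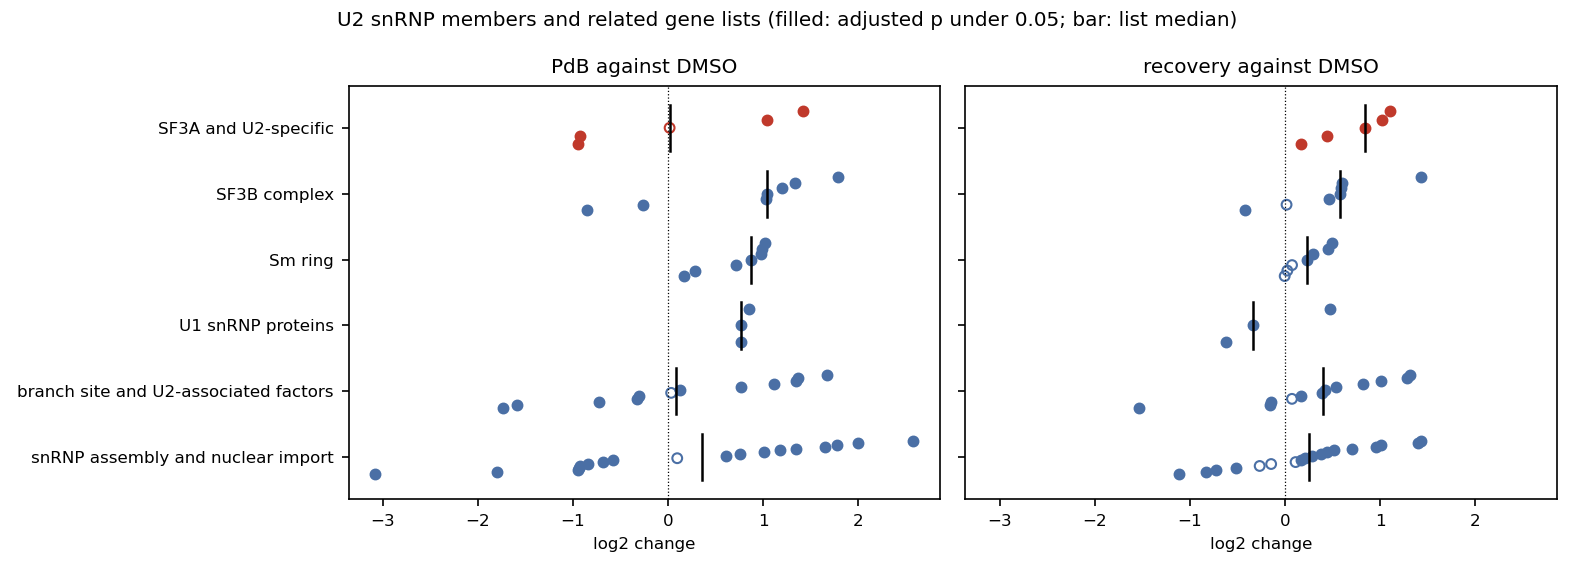
log2 change (horizontal axes) under PdB and at recovery, both against DMSO, of the 5 genes (red, top row) and of the SF3B, Sm ring, U1, branch site and snRNP assembly lists (blue), filled where the adjusted p was under 0.05, with a bar at each list's median. The top row is spread to both sides of 0 under PdB and lies between 0.16 and 1.10 at recovery, while the Sm ring and U1 rows lie above 0 under PdB.

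Among 12 branch site and U2-associated factors, 6 rose and 5 fell under PdB, where 70.1% of all genes passed (median log2 change 0.077, or -0.12 with library totals, where 5 rose and 6 fell). SMNDC1, a spliceosome assembly factor, rose by 1.67 ± 0.057 and U2SURP, an SR-related U2 protein, fell by 1.74 ± 0.064 on the log2 scale. At recovery against DMSO 8 rose and 3 fell, where 61.2% of all genes passed (1 fell with each of the other 3 scalings), with U2AF1 at 1.32 ± 0.19 and the helicase DDX46 at -1.54 ± 0.051. U2AF1 has a near-identical copy in GRCh38, so its counts are uncertain, and it was low, with 3.79 ± 0.13 CPM at recovery against 1.52 ± 0.24 CPM in DMSO. Against PdB, 6 rose and 4 fell, where 66.1% of all genes passed, led by U2SURP at 1.59 ± 0.063 and DDX46 at -1.66 ± 0.051. In 18 genes of snRNP assembly and import, 9 rose and 8 fell under PdB, where 70.1% of all genes passed. SMN1, whose product loads Sm proteins on snRNA and whose reads may be split with its near-identical copy SMN2, rose by 2.58 ± 0.078. Its partner GEMIN2 fell by 3.08 ± 0.29 on the log2 scale. GEMIN2 was low, with 1.11 ± 0.66 CPM in PdB and 5.63 ± 0.18 CPM at recovery, against 9.30 ± 0.54 CPM in DMSO (SD, n = 3 each). At recovery against DMSO 11 rose and 4 fell, where 61.2% of all genes passed, with SMN2 at 1.43 ± 0.099 and WDR77, a subunit of the methylosome that modifies Sm proteins, at -1.11 ± 0.068. Against PdB, 9 rose and 8 fell, where 66.1% of all genes passed (10 rose and 6 fell with library totals, 7 rose and 8 fell with upper-quartile factors), from GEMIN4 at -1.36 ± 0.047 to GEMIN2 at 2.36 ± 0.29.

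To place each gene's pattern, the profile of log2 CPM over the 9 libraries, centred on its own mean, was compared with those of 9544 genes of at least 10 CPM by the root mean square distance. Profiles follow the groups in most genes, so these are descriptions. SNRPB2 was closest to SURF6 (0.037), DUSP14 (0.045) and MSANTD7 (0.051), where the median gene lay at 0.77. SF3A2 was closest to TRMT1 (0.062), DDX55 (0.068) and CHMP4B (0.075). SF3A3 was closest to GMNN (0.037), RGP1 (0.040) and HJURP (0.045), and SNRPA1 to DIP2B (0.075), MARCHF7 (0.083) and TEAD3 (0.088). SF3A1 was closest to POLR2B (0.038), PLPP2 (0.044) and EIF3E (0.044). No gene of the set was among the 3 nearest of another, which with 9544 genes compared says little on whether the set moved together. Of the 10 pairs within the set, SF3A2 and SNRPB2 were the closest (0.18) and the binding partners SNRPA1 and SNRPB2 the farthest apart (1.06).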

How the data were processed

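RNA of MDA-MB-231 cells was sequenced in 9 libraries from polyadenylated RNA, 3 per group, per the labels. The authors deposited whole-number read counts per gene, not normalised. The build was hg38 and the tools named were DESeq2 1.30.0, featureCounts 2.0.3, Picard, STAR 2.7.9a and fastp 0.23.2, per the submitters' processing notes. How strand, duplicates and multiply mapped reads were handled, and which annotation was counted, is not given in the sources used here.

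Counts were filtered with filterByExpr (20812 of 60708 genes left), scaled by TMM and tested two-sided with edgeR 4.0.16 (R 4.3.3) quasi-likelihood tests, all 9 libraries in one fit without a replicate block, with Benjamini-Hochberg adjustment over all genes tested and a threshold of 0.05. Distances used log2 CPM with a prior count of 2. Groups came from sample titles. No 2 libraries of a group agreed within counting noise (chi-square per degree of freedom 4.97 to 26.4). Alternatives were 3 other scalings, a minimum mean of 50 counts or no filter, a threshold of 0.01, a test against a 2-fold change, DESeq2 1.42.0, only the 6 libraries compared, a replicate block and each library left out. Scripts were tested on simulated data.

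Symbols were found for 60507 gene identifiers and 58440 were in GENCODE 29. The coding transcript is the one with the longest coding length. All 5 genes were named, and from each other list the largest rise and fall past the threshold per comparison; a few further genes of these lists (SF3B2 and PHF5A in other comparisons, SNRPF, SNRPA and SNRNP70) were chosen after their values were seen, as was the promoter motif. The members and lists were chosen with earlier results of these data known. Figures were drawn with matplotlib 3.10.9. One item of the cell type marker list is not reported here.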

Additional observations from a re-analysis of the deposited data

How the results depend on the processing

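The calls of SF3A2, SF3A3, SNRPA1 and SNRPB2 under PdB, and of all 5 genes at recovery against DMSO, held under every alternative but the test against a 2-fold change. That test left 1 of the 5 genes under PdB, 0 at recovery against DMSO and 1 at recovery against PdB, and 5989, 2903 and 4451 of all genes. For SF3A1 under PdB the log2 change was -0.18 with library totals and -0.019 without a filter; for SF3A2 at recovery against PdB it was 0.25 with library totals. SF3A1 under PdB also passed the test with upper-quartile factors, a minimum mean of 50 counts (0.14, adjusted p = 0.014) and DESeq2 (0.11, adjusted p = 0.036), and its adjusted p over all these settings ran from 0.0015 to 1. The causes were not tested.

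Leaving out 1 library at a time gave 14002 to 14762 changed genes under PdB, 11715 to 13325 at recovery against DMSO and 12931 to 14034 at recovery against PdB. The genes of the set that passed numbered 4, 5 and 4 to 5. SF3A1 under PdB ranged from -0.021 (without DMSO replicate 1) to 0.029, and SF3A2 at recovery against PdB from -0.12 (without PdB replicate 3) to 0.048 (without PdB replicate 2). In their deviations from group means, same-numbered libraries of different groups had correlations of -0.0032 to 0.048 over 9 pairs. Libraries with other numbers had -0.061 to 0.026 over 18 pairs. The highest values, 0.048, 0.044 and 0.043, were those between libraries numbered 3. All were small, and the numbers were not taken to pair libraries in the main fit. Whether a weak pairing exists was not tested. The replicate block changed no call of the 5 genes and gave 14628 changed genes under PdB, 12922 at recovery against DMSO and 13871 at recovery against PdB. At 3 libraries a group, the exact permutation test used for the ratios cannot reach a p under 0.10.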
